A study of Mus musculus with 4 samples.

Results

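ATP-binding cassette (ABC) transporters are membrane proteins that use ATP to move lipids, sterols, bile components, drugs and metabolites across a membrane. Their expression in mouse liver was examined in 4 conditions that combine 2 genotypes with 2 diets. Members were chosen by name: probes were matched to genes through their transcript accessions, and a gene was taken where its symbol starts with Abc, followed by a letter from a to g and a number. The 47 genes described here are carried by 79 probes and are among 23458 genes matched on the array. Of the 47, 16 belong to subfamily A, 8 to B, 10 to C, 3 to D, 1 to E, 3 to F and 6 to G.

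The RNA came from livers of male mice on a C57BL/6 background at 24 weeks of age. F/F mice carry floxed alleles of Lpiat1 (gene symbol Mboat7), whose enzyme places arachidonic acid into phosphatidylinositol. LKO mice carry the same floxed alleles together with Alb-Cre, a recombinase under the albumin promoter, so the deletion is directed to hepatocytes and other liver cells keep the gene. Mice of each genotype received chow (CE2) or a high fat diet (HFD-60, called HFD here) for 18 weeks, starting when they were 6 weeks old. Each combination of genotype and diet has 1 one-colour array. Whether RNA of several mice was combined for an array is stated neither in the labels nor in the methods. For its extraction, the labels name a different kit from the RNeasy Mini Kit of the methods. With 1 array per condition no difference has a replicate check, none was tested, and "higher" and "lower" below describe these arrays only.

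In hepatocytes, ABC proteins of the canalicular membrane pass phospholipid, sterols and conjugated waste into bile, while those of the sinusoidal membrane return conjugates to blood or load lipid on lipoprotein particles. Several proteins of the D subfamily, which work as dimers, bring fatty acyl-CoA into peroxisomes, and several dimeric B members sit in the inner mitochondrial membrane. The E and F proteins have the nucleotide-binding domains but no membrane part, and they act on ribosomes and translation.

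Each value is a relative signal, the background-subtracted signal of the brightest probe of a gene divided by the 75th percentile of all spots of the same array that are not controls. It can be compared between arrays for 1 gene, but not between genes, because probes differ in brightness. Values for an array pair are written F/F first and LKO second, for chow and then for HFD, and differences are in log2. Of the spots that are not controls, 54.2% and 53.0% were well above background for chow and 54.6% and 57.0% for HFD. The dimmest such spot had a relative signal of 0.0352 and 0.0379 on chow, 0.0317 and 0.0264 on HFD. Where a gene was below that call on 1 array of a comparison, its difference is a bound and is written "at least". Abca4 is an exception, with no value for HFD minus chow in LKO although only its chow signal was below that call. The technical spread could be read only from other probes, printed several times on each array: the difference of 2 such spots had an SD of 0.09 (log2) where they were well above background and of 0.65 where they were not. No ABC probe was printed more than once. Different probes of 1 gene, which also differ in the transcripts they detect, gave differences that varied with an SD of 0.32 for LKO minus F/F on HFD, 0.28 on chow, 0.37 for HFD minus chow in F/F and 0.41 in LKO.

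The hepatocyte markers Alb, Apoa1, Apob, Serpina1a and Hnf4a were well above background on all 4 arrays, as a liver sample should show, with summed relative signals of 2635 and 2688 on chow, 2124 and 1873 on HFD. Albumin, the brightest of them, had 1044 and 1072 on chow, 840.1 and 753 on HFD. Their median difference was -0.16 for LKO minus F/F on HFD, 0.03 on chow (which turns negative with normexp background correction, with quantile normalization and in the deposited table), -0.31 for HFD minus chow in F/F and -0.52 in LKO. Over the alternatives these medians came as close to 0 as -0.02 for LKO minus F/F on HFD, 0.00 for HFD minus chow in F/F and -0.15 in LKO. The targeted gene Mboat7 had relative signals of 4.97 and 4.04 on chow, 4.49 and 3.72 on HFD, with LKO below F/F on both diets (log2 differences of -0.27 on HFD and -0.30 on chow). This goes in the labelled direction and is small. Mboat7 has 1 probe, whether it lies in the deleted exons was not determined, and cells other than hepatocytes also contribute RNA to the sample. In whole liver, fewer cells of a type and less RNA per cell cannot be told apart, here or for any gene that follows.

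Of the 47 members, 36 (76.6%) were well above background on all 4 arrays, against 59.6% of all genes on the array. Abca4, Abcc1 and Abcc12 reached that call on some arrays only. Another 8 reached it on none: Abca12, Abca13, Abca14, Abca15, Abca16, Abcb5, Abcc8 and Abcg4. Abcc8, a regulatory subunit of the potassium channel of pancreatic beta cells, and Abca12, a lipid carrier of the epidermis, are best known from tissues other than liver. Values below are thus those of 39 genes, and no count treats the other 8 as unchanged.

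The median genotype difference of the family was near 0, while a smaller share of its members than of all genes lay within 1.5-fold. For LKO minus F/F on HFD, 39 members had a value, 15 were higher (38.5%, against 45.9% of all genes) and 24 lower, and their median was -0.09 against -0.03 for the 15525 genes with a value. Of these members, 1 (Abcc12) was at least 2-fold higher and 0 were at least 2-fold lower, where 2.36% and 1.91% of all genes were. On chow the corresponding median was 0.00 over 38 members, with 19 higher and 19 lower. There, 1 member (Abcd2) was at least 2-fold higher in LKO and 0 were lower, against 1.11% and 1.03% of the 14978 genes. Of the members with a value, 32 of 39 (82.1%) differed by less than 1.5-fold on HFD and 33 of 38 (86.8%) on chow, against 85.8% and 93.0% of all genes.

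More members differed 2-fold by diet than by genotype, and so did more genes over the whole array. In F/F, 4 members were at least 2-fold higher on HFD (Abcd2, Abcb9, Abcb1a and Abcg3) and 1 was lower (Abca17), against 5.21% and 2.94% of the 15355 genes with a value. In LKO, 7 were at least 2-fold higher on HFD (Abcc12, Abcc1, Abcg3, Abcg1, Abcd2, Abca5 and Abcb1a) and 1 was lower, again Abca17, against 8.12% and 4.08% of 15239 genes. Whether members passed 2-fold more often than other genes was not tested. The members' median for HFD minus chow was -0.01 in F/F, which turned to 0.027 with the percentile taken from probes above background throughout, 0.044 with quantile normalization and 0.13 in the deposited table of values. In LKO it was -0.08, which turned to 0.030 with normexp background correction, 0.043 with quantile normalization and 0.063 in the deposited table. The 4 comparisons share arrays in pairs, so that 1 unusual array would show in 2 of them. The map of the log2 difference of each member sets them side by side.

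**Figure D1:**
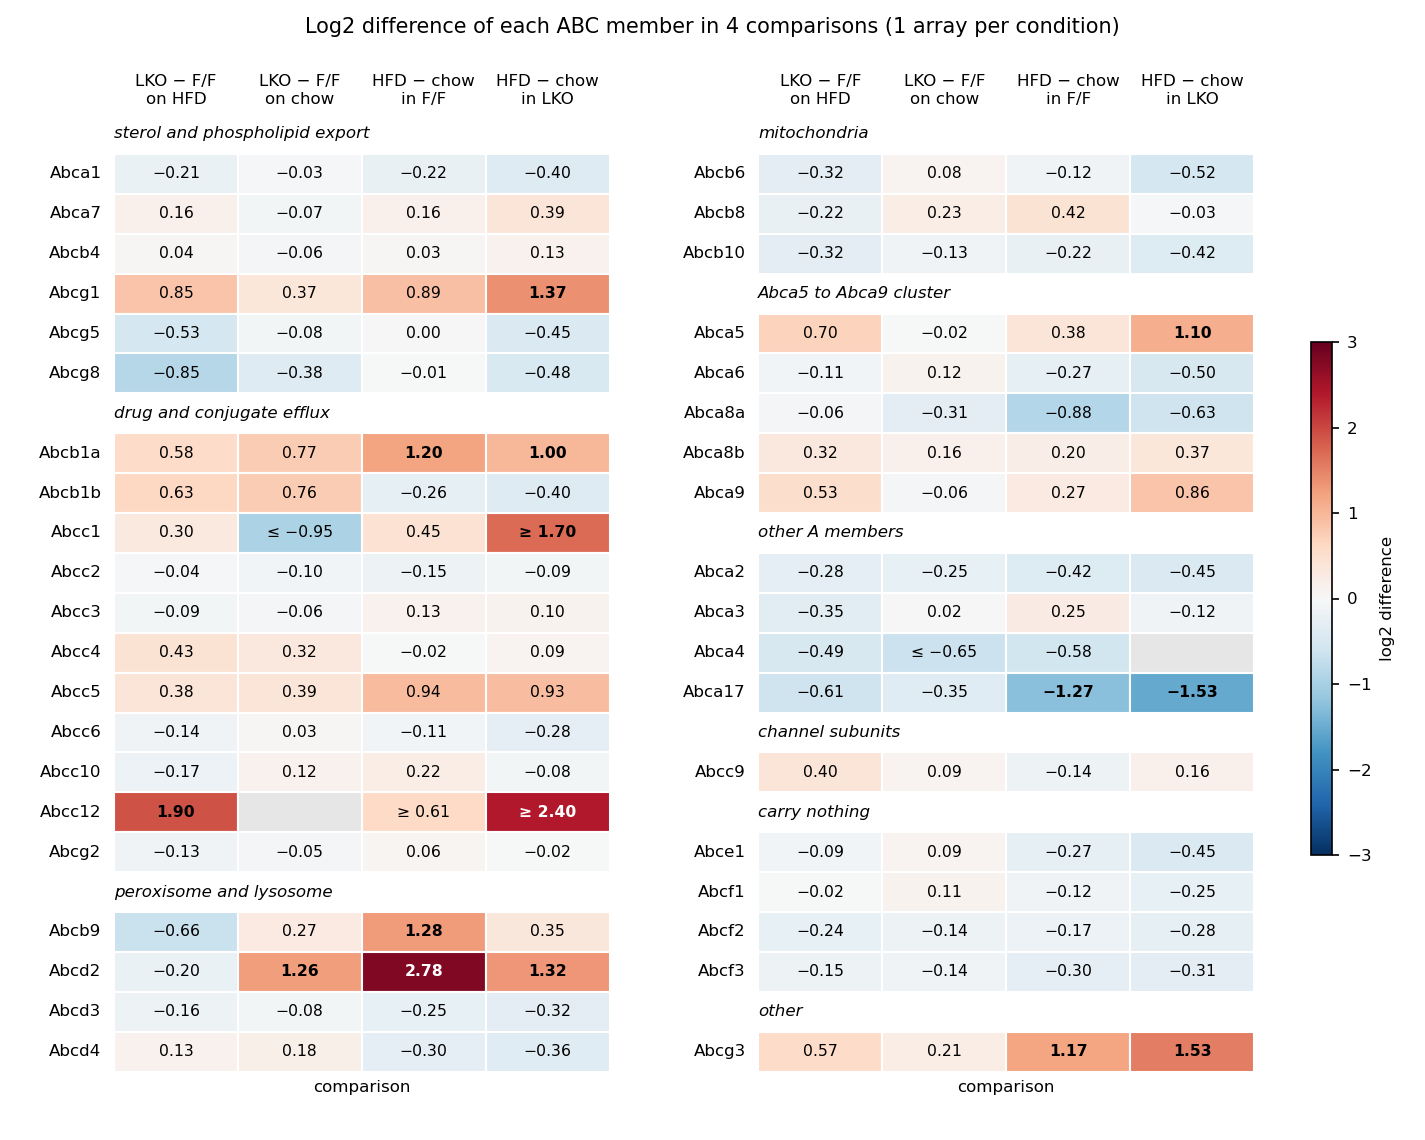
Log2 difference of each of the 39 ABC members with a value in any comparison (rows, by role) in 4 comparisons (columns), each between 2 arrays, with colour from blue (lower) to red (higher). Bold values are at least 2-fold, ≥ and ≤ mark bounds, and grey cells have no value. Abcd2 on HFD in F/F (2.78) is the highest measured value and Abca17 on HFD in LKO (-1.53) the lowest.

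Among exporters of sterols and phospholipids, Abcg1 was higher and the pair Abcg5 and Abcg8 lower in LKO on HFD. Abcg1, which passes cholesterol from cells to high density lipoprotein and is abundant in macrophages, had relative signals of 1.08 and 1.40 on chow, 2.01 and 3.62 on HFD. F/F on chow was the lowest array and LKO on HFD the highest, and both HFD arrays lay above both chow arrays. LKO exceeded F/F by 0.85 on HFD, or 1.80-fold, and by 0.37 on chow, and 3.72% of the genes with a value were as far or farther up on HFD. HFD exceeded chow by 0.89 in F/F and by 1.37 in LKO, the latter 2.58-fold and past 2-fold under every alternative processing tried.

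Macrophage markers were higher on the same arrays as Abcg1. Of the 6 listed, 6 were higher in LKO on HFD with a median of 0.60, while 4 were higher on chow with a median of 0.03 that turns negative in the deposited table. For HFD minus chow, 5 were higher in F/F (median 0.39) and 6 in LKO (median 0.97). Their summed relative signal was 46.8 and 47.4 on chow, 61.2 and 83.2 on HFD, and Csf1r, the brightest, had 23.0 and 21.9 on chow, 28.7 and 36.8 on HFD. Each of the 6 was above background on at least 1 array. Their part in the Abcg1 values was not tested.

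Abcg5 and Abcg8 form a heterodimer that sends cholesterol and plant sterols into bile, and neither works without the other. Their genes lie head to head on chromosome 17, and 1 short stretch of DNA precedes the start of Abcg5 and 1 of the 2 starts that the table gives for Abcg8. The other Abcg8 start lies inside the annotated range of Abcg5, so the ranges overlap. The stretch is shown because both genes were lower on the same array. In the RefSeq promoter table (GRCm38.p6) these 2 starts have 109 bases between them, chr17:84683012-84683120, printed on the plus strand, with Abcg8 reading to the right and Abcg5 to the left. Capitals mark the 5 letters GATAA or, on the other strand, TTATC.
Abcg5 to Abcg8: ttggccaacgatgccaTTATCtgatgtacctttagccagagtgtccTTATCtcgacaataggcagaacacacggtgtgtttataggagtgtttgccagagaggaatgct
The letters occur 2 times in it. Of the 32851 windows of this length just before a start in the table, 9.36% hold them at least once and 0.788% at least 2 times. They were looked for after the window had been read, a match is not a binding site, and none of this was tested against expression.

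Signals of Abcg5 were 33.4 and 31.6 on chow, 33.4 and 23.1 on HFD, and those of Abcg8 were 9.62 and 7.39 on chow, 9.56 and 5.29 on HFD. For both genes, the LKO array on HFD was the lowest of the 4, and F/F on chow and on HFD were nearly equal. LKO minus F/F on HFD was -0.53 for Abcg5 and -0.85 for Abcg8 (1.81-fold lower), and 7.20% and 2.74% of the genes with a value were as far or farther down. On chow the differences were -0.08 and -0.38. The genotype difference on HFD minus that on chow was close to the same for both partners (-0.45 and -0.48), untested, and kept its sign under every alternative. Each gene has 1 probe.

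The other exporters of this role differed less. Abca1, which lipidates apolipoprotein A-I and is the rate-limiting step of high density lipoprotein formation, had 6.53 and 6.40 on chow, 5.61 and 4.86 on HFD, a gradual descent with -0.21 for LKO minus F/F on HFD and -0.40 for HFD minus chow in LKO. The other probe of Abca1 gave -0.50 and -0.74. Abcb4, the flippase that supplies phosphatidylcholine to bile, had signals of 72.6 and 69.5 on chow, 74.1 and 76.0 on HFD, and its 4 differences lay between -0.06 and 0.13. Abca7, a relative of Abca1, had 1.497 and 1.42 on chow, 1.68 and 1.87 on HFD and a difference of 0.39 for HFD minus chow in LKO. For LKO minus F/F on HFD it gave 0.16, and its other probe -0.10. Thus within 1 role on the HFD arrays, 3 genes were higher in LKO (Abcg1 and, by little, Abca7 and Abcb4) and 3 were lower (Abca1, Abcg5 and Abcg8), and the sign of Abcb4 turns with quantile normalization.

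Abcg1, Abca1, Abcg5 and Abcg8 are all textbook targets of the liver X receptors (LXR), so other targets and partners were read beside them. Of 10 other LXR targets, 7 were higher and 3 lower in LKO on HFD, with a median of 0.11, and on chow 8 were higher with a median of 0.17. The list was not uniform: on HFD, lipoprotein lipase (Lpl) was higher by 1.37 and the phospholipid transfer protein Pltp by 0.90, while Srebf1, the master factor of fatty acid synthesis, gave -0.75. The genes named from this and later lists were picked after their values were seen. The LXR genes themselves gave -0.17 (Nr1h3) and -0.08 (Nr1h2, which turns positive under at least 1 alternative). Of 8 partners in cholesterol export and handling, 6 were lower in LKO on HFD with a median of -0.17, among them the cholesterol esterifying enzyme Lcat at -0.36 and the lysosomal exporter Npc1 at -0.50. Npc2, a soluble lysosomal sterol carrier, went the other way with 0.65. These companions, like the ABC exporters, thus held genes in both directions on the HFD arrays.

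**Figure D2:**
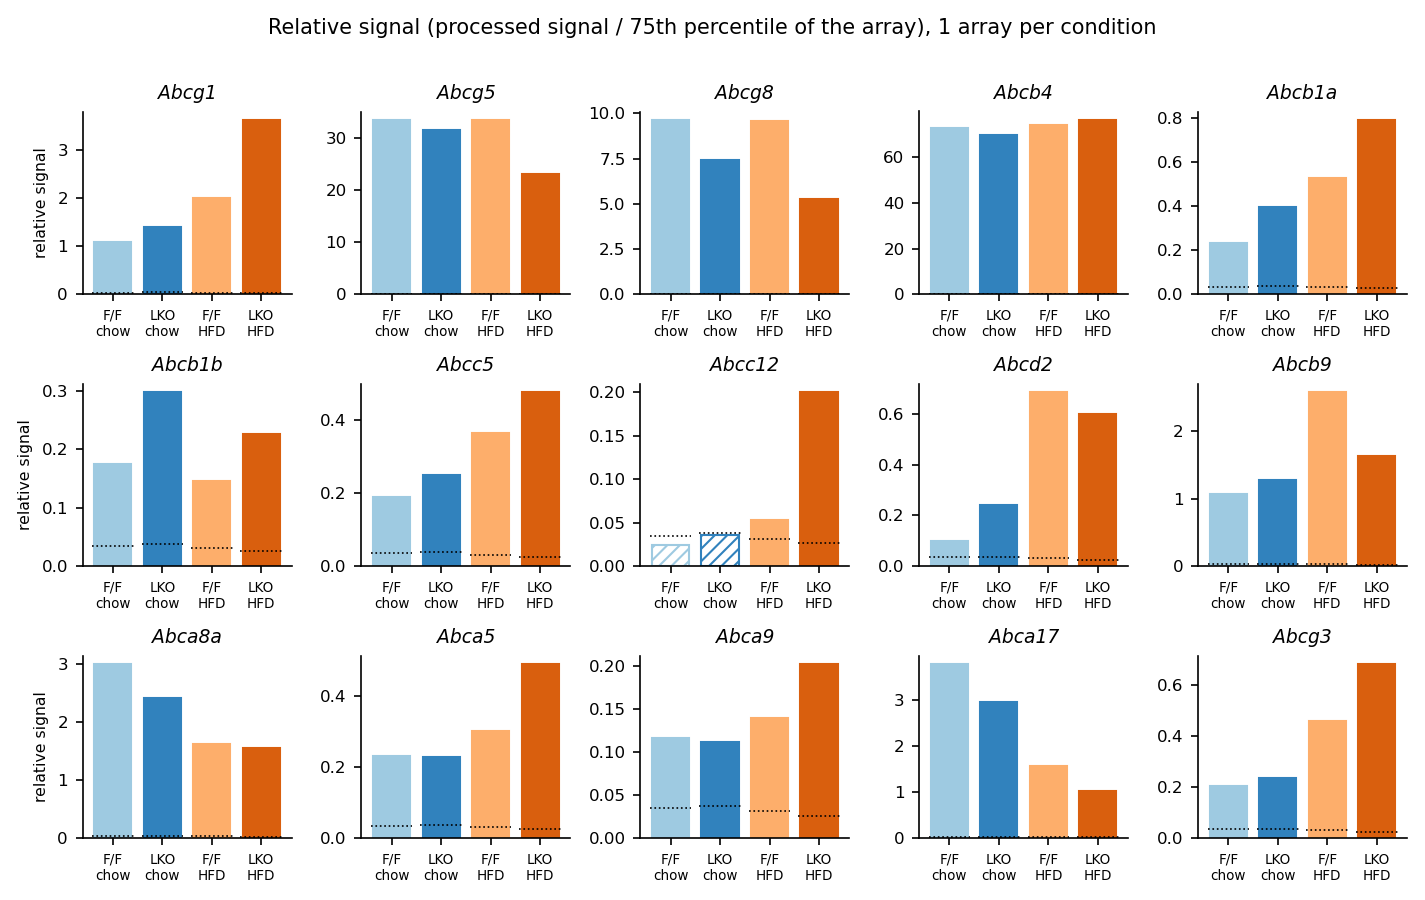
Relative signal (processed signal divided by the 75th percentile of the array, linear axis from 0, own scale per panel) of 15 ABC members on the 4 arrays, 1 bar per array. Dotted lines mark the dimmest spot well above background and hatched bars lie below that call. Abcg1 is highest and Abcg5 and Abcg8 are lowest in LKO on HFD (3.62, 23.1 and 5.29).

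The efflux pumps for drugs and conjugates formed a level group and a group with larger differences. The level group holds the main pumps of the hepatocyte. Abcc2, which exports glucuronide and glutathione conjugates into bile, had 13.3 and 12.4 on chow, 12.0 and 11.7 on HFD. Abcc3, its counterpart towards blood, had 39.6 and 38.1 on chow, 43.3 and 40.8 on HFD. Abcg2, the breast cancer resistance protein of the canalicular membrane, had 30.1 and 29.1 on chow, 31.4 and 28.7 on HFD, and Abcc6, whose loss causes ectopic calcification, had 18.9 and 19.4 on chow, 17.5 and 15.9 on HFD. Across these 4 genes and 4 comparisons, every difference lay between -0.28 (Abcc6, HFD minus chow in LKO) and 0.13 (Abcc3, HFD minus chow in F/F). Abcc10, a pump for amphipathic drugs, had 0.683 and 0.743 on chow, 0.793 and 0.705 on HFD. Its LKO minus F/F on HFD was -0.17 and its HFD minus chow in LKO -0.08, which turn to 0.32 and 0.59 with the mean of all probes. Its second probe was not well above background on any array.

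The P-glycoprotein genes Abcb1a and Abcb1b were higher in LKO than in F/F on both diets. Abcb1a, the form of gut and brain capillaries, had 0.231 and 0.394 on chow, 0.528 and 0.790 on HFD. Abcb1b, the form of adrenal and pregnant uterus, had 0.176 and 0.298 on chow, 0.146 and 0.226 on HFD. The second probe of Abcb1b was not well above background on any array. LKO exceeded F/F by 0.58 on HFD and 0.77 on chow for Abcb1a, and by 0.63 and 0.76 for Abcb1b. On chow, 1.95% and 2.02% of genes were as far or farther up, and with normexp the 4 values were 0.33 and 0.43, 0.24 and 0.38. Diet separated them: HFD exceeded chow by 1.20 in F/F and was 2.01-fold that on chow in LKO for Abcb1a, whereas Abcb1b gave -0.26 and -0.40. With normexp the Abcb1a diet values were 0.75 and 0.65, both under 2-fold. The order of the 4 arrays was thus by diet and then genotype for Abcb1a, and by genotype and then diet for Abcb1b.

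These neighbours on chromosome 5 encode closely related pumps, and the DNA before their starts is printed because their diet values differ in sign. Each line gives the 150 bases before the start on the plus strand, from chr5:8566941-8567090 for Abcb1a and chr5:8797997-8798146 for Abcb1b, with CCAAT or, on the other strand, ATTGG in capitals.
Abcb1a: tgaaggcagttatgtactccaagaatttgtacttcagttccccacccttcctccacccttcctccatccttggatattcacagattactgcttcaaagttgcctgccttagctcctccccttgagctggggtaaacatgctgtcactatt
Abcb1b: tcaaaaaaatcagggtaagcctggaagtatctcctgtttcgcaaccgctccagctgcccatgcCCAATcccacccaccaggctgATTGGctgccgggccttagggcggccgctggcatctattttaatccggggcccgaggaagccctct
The Abcb1b window holds the 5 letters 2 times and has a GC content of 58.7%, and the Abcb1a window holds them 0 times and has 47.3%. Of all windows of 150 bases before a start, 24.5% hold the letters and 6.02% hold them at least 2 times. This motif too was chosen after the windows had been read, and it was not tested against expression.

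The remaining pumps had larger differences. Abcc5, an exporter of cyclic nucleotides, had 0.191 and 0.251 on chow, 0.367 and 0.478 on HFD, and HFD exceeded chow by 0.94 in F/F and 0.93 in LKO, just under 2-fold in each. With normexp these were 0.44 and 0.59, and with the mean of all probes they passed 2-fold, at 1.15 and 1.85. LKO exceeded F/F by 0.38 on HFD and 0.39 on chow, the latter 0.01 with the mean of all probes. Of its 4 other probes, 3 gave bounds for HFD minus chow in F/F, from at least 0.24 to at least 0.66, and 1 gave at least 1.33 for LKO minus F/F on HFD. Abcc4, which sends conjugates and cyclic nucleotides to blood, had 0.296 and 0.368 on chow, 0.291 and 0.392 on HFD, higher in LKO by 0.43 on HFD and 0.32 on chow and close to level between diets. Taken by role, 6 of the 11 efflux pumps were higher in LKO on HFD and the median was 0.30. That median turned to -0.04 when genes below that call on any array were dropped.

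Abcc1 and Abcc12 lay near the detection limit. Abcc1, a broad exporter of glutathione conjugates, had 0.0808 and 0.0418 on chow, 0.111 and 0.136 on HFD, and its LKO chow value was not well above background. It was therefore lower in LKO on chow by at least 1.93-fold and higher on HFD than on chow in LKO by at least 3.25-fold, both of which rest on 1 dim spot and are -0.18 and 0.18 (log2) with normexp. Abcc12, an orphan member of the C subfamily, had 0.0249 and 0.0361 on chow, 0.0536 and 0.200 on HFD, and neither chow value was well above background. On HFD its LKO signal was 3.74-fold the F/F signal (log2 difference 1.90, with 0.451% of genes as far or farther up), and in LKO it was at least 5.28-fold higher on HFD than on chow. The high value rests on the LKO array on HFD alone. With normexp background correction the genotype difference on HFD was 0.56 and the diet difference in LKO 0.45, both under 2-fold, and the latter was 0.08 with the mean of all probes. Of its 2 other probes, 1 was not above background on any array. The other was above it only in LKO on HFD. It gave at least 0.67 for LKO minus F/F on HFD and at least 0.41 for HFD minus chow in LKO.

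Markers of the exocrine pancreas were also highest in LKO on HFD. Of 6 listed, 5 had a value, 5 were higher in LKO on HFD with a median of 1.94, 5 were lower in LKO on chow with a median of -0.92, and their summed relative signals were 21.8 and 13.2 on chow, 11.3 and 42.5 on HFD. Amy2a5 was the brightest, with 12.5 and 8.38 on chow, 5.90 and 24.3 on HFD, and Prss1 was not above background on any array. Their part in the Abcc12 values was not tested.

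Regulators of drug transport and their other targets held genes in both directions. The pregnane X receptor Nr1i2 had differences of 0.24 on HFD and 0.35 on chow for LKO minus F/F, and the constitutive androstane receptor Nr1i3 had -0.63 and -0.10. Of 9 other targets of these receptors, 6 were lower in LKO on HFD with a median of -0.69, and 2 of them by at least 2-fold, Cyp2b10 (-2.52) and Cyp2b9 (-2.61). The other 3 were higher in LKO on HFD and on chow, Cyp3a11 by 0.82 and 0.22, Cyp3a13 by 0.17 and 0.23, and Cyp2c55 by 0.10 and 0.39. Under HFD, 8 of the 9 were lower than on chow in LKO with a median of -1.16, and 6 were lower in F/F with a median of -0.79, where Cyp2b9 and Cyp2b10 were higher by 2.61 and 1.42. Targets of NRF2, which induces several C subfamily pumps, leaned the other way, with 7 of 8 higher in LKO on HFD and a median of 0.35. Nqo1, the usual reporter of NRF2, had 0.297 and 0.478 on chow, 0.794 and 0.984 on HFD. Of 16 regulators of ABC genes, 12 were lower in LKO on HFD (10 to 12 over the alternatives, median -0.18), including Ppara at -0.62 and Nr0b2 at -0.68.

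Carriers that bring substrates into hepatocytes were read beside the pumps. Of 8 uptake carriers, 7 were lower in LKO on HFD (6 or 7 over the alternatives) with a median of -0.55, against -0.02 on chow. Slc22a7, an organic anion transporter, had 8.61 and 6.33 on chow, 7.70 and 1.07 on HFD, and LKO minus F/F on HFD was -2.84. Slco1a1, an organic anion carrier of male liver, had 13.0 and 12.2 on chow, 2.31 and 1.42 on HFD, with -2.50 for HFD minus chow in F/F and -3.11 in LKO. For LKO minus F/F on HFD the carriers ran from -2.84 to 0.08 and the 11 pumps from -0.17 to 1.90, with 6 pumps higher and 5 lower. The 1.90 is that of Abcc12, which lay near the detection limit, and the next pump was Abcb1b at 0.63. On chow the ranges were -0.44 to 0.27 and -0.95 (a bound) to 0.77, the latter over 10 pumps, since Abcc12 has no value there.

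**Figure D3:**
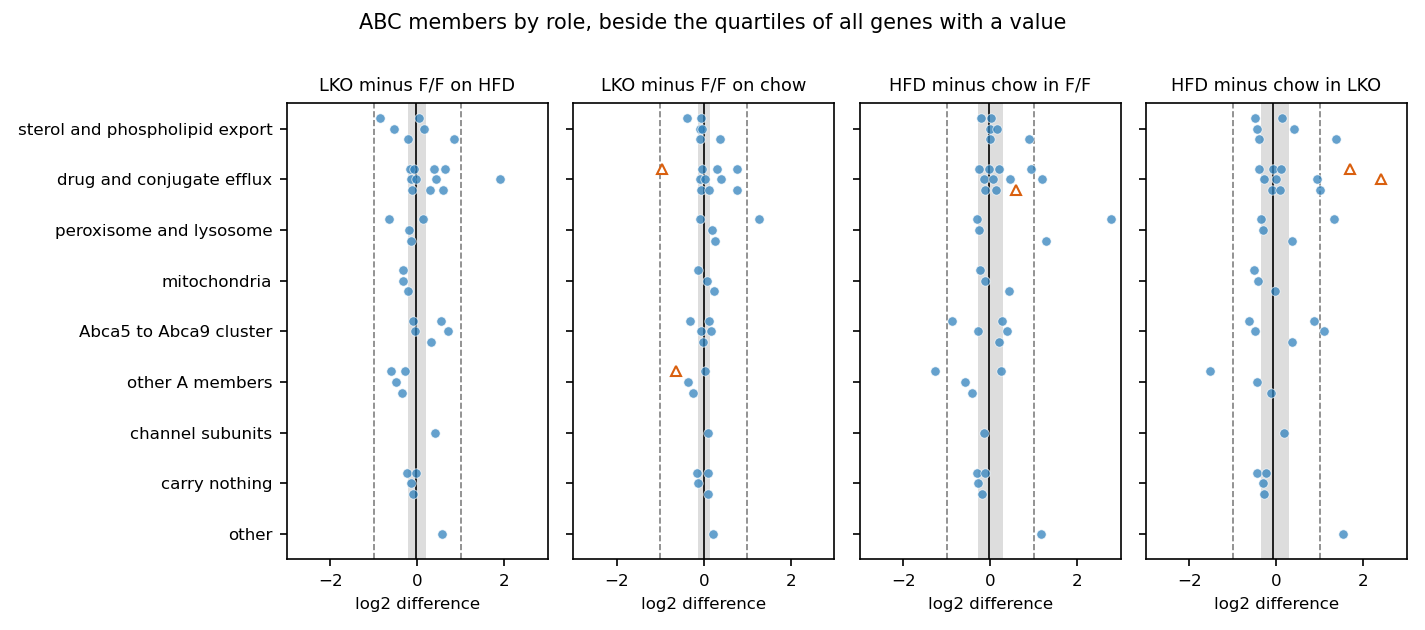
Log2 difference of each ABC member (points, triangles for bounds) by role in 4 comparisons, with dashed lines at 2-fold, the median of all genes as a solid line and the quartiles of all genes as a grey band. Points of 1 role are spread vertically for legibility only. In LKO minus F/F on HFD the 3 mitochondrial members lie below 0, and the farthest point to the right is Abcc12 (1.90).

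In the peroxisome, the D subfamily held a level gene and 1 that was higher on HFD. Abcd3, which takes in branched-chain and dicarboxylic acyl-CoA, had 125 and 118 on chow, 105 and 94.1 on HFD, with no difference farther from 0 than -0.32. Abcd2, a carrier of very long chain and polyunsaturated acyl-CoA, had 0.100 and 0.240 on chow, 0.685 and 0.598 on HFD. F/F on chow was the lowest array, and both HFD arrays lay above both chow arrays. HFD exceeded chow by 2.78 in F/F, or 6.85-fold, the largest measured difference of any member, and 0.293% of genes were as far or farther up. In LKO the corresponding difference was 1.32, and on chow LKO exceeded F/F by 1.26 (2.40-fold, 0.721% of genes as far or farther up). On HFD, LKO minus F/F was -0.20, so the genotype difference on chow was not seen there, and the gap between them was -1.46, untested.

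Normexp, run with an offset of 50 added to every signal, reduced these Abcd2 values. Before scaling, the processed Abcd2 signal on chow was 22.2 in F/F and 51.2 in LKO, so an offset of that size shrinks its differences by itself. The parts of the offset and of the background correction in the reduction were not told apart. HFD minus chow in F/F became 1.30, still past 2-fold, and in LKO it became 0.64. LKO minus F/F on chow became 0.46, and the gap between the genotype differences -0.66. Abcd4, which acts in lysosomal release of cobalamin, had 2.39 and 2.71 on chow, 1.94 and 2.12 on HFD.

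Pparg, the nuclear receptor of adipocyte differentiation, was like Abcd2 lowest in F/F on chow and highest in F/F on HFD, with 3.68 and 7.78 on chow, 9.95 and 7.46 on HFD and differences of 1.44 for HFD minus chow in F/F and 1.08 for LKO minus F/F on chow. Of 9 genes of peroxisome assembly and β-oxidation, 9 were lower in LKO on HFD (8 or 9 over the alternatives) with a median of -0.28, among them Pex16 at -0.56. On chow their median was 0.01, which turns negative with quantile normalization and in the deposited table. None of these 9 reached 2-fold in any of the 4 comparisons. Hepatocyte markers were also lower in LKO on HFD, in 5 of 5 with a median of -0.16. Their part in the values of these 9 genes was not tested.

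Abcb9, a peptide transporter of lysosomes, was highest in F/F HFD, with signals of 1.07 and 1.28 on chow, 2.58 and 1.63 on HFD. HFD exceeded chow by 1.28 in F/F, past 2-fold under every alternative, and by 0.35 in LKO. LKO minus F/F was -0.66 on HFD and 0.27 on chow, so F/F on HFD stood above the other 3 arrays. The summed signal of red blood cell markers was also highest there, at 107 and 105 on chow, 199 and 101 on HFD. Most of each sum was Hba-a1, with 69.6 and 68.6 on chow, 151 and 76.4 on HFD. For HFD minus chow in F/F, 3 of the 4 markers were higher (median 0.82), while Alas2 was lower at -0.42. The part of these markers in the Abcb9 values was not tested. The relatives Tap1 and Tap2 of Abcb9, which feed peptides to MHC class I in the endoplasmic reticulum and have symbols outside the family rule, were also higher on HFD, by 0.82 and 0.50 in F/F and by 0.90 and 0.51 in LKO. They differed little by genotype on HFD, with -0.19 and 0.16, the latter of which turns negative under an alternative. The 9 genes of peptide transport and class I loading as a list had medians of 0.02 in F/F and -0.05 in LKO for HFD minus chow, the latter turning positive under some alternatives.

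Of the mitochondrial transporters, all were slightly lower in LKO on HFD and not all were higher on chow. On HFD, 3 of 3 were lower, under every alternative, with a median of -0.32, and on chow 2 of 3 were higher with a median of 0.08. Abcb6, a porphyrin transporter, had 7.39 and 7.80 on chow, 6.81 and 5.45 on HFD. Abcb10, which works in haem synthesis, had 3.93 and 3.60 on chow, 3.37 and 2.70 on HFD, and Abcb8, part of a mitochondrial potassium channel, had 4.92 and 5.78 on chow, 6.61 and 5.66 on HFD. No array stood apart for all 3 genes. Their differences for LKO minus F/F on HFD ran from -0.32 to -0.22, each under 1.5-fold. On the same pair of arrays the median was -0.16 for hepatocyte markers and -0.95 for red blood cell markers, of which 4 of 4 were lower. Their part in the mitochondrial values was not tested.

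The A subfamily genes Abca5, Abca6, Abca8a, Abca8b and Abca9 lie in 1 cluster on chromosome 11, and they differed from each other. Abca5, a lysosomal member, had 0.231 and 0.229 on chow, 0.302 and 0.489 on HFD, higher in LKO on HFD by 0.70 (0.39 with normexp) but level on chow (-0.02, which turns positive with the mean of all probes). HFD exceeded chow in LKO by 1.10, or 2.14-fold (0.58 with normexp), and in F/F by 0.38. Abca9 resembled it, with 0.116 and 0.111 on chow, 0.140 and 0.202 on HFD and with 0.53 on HFD and -0.06 on chow for LKO minus F/F, the latter of which turns positive with normexp. Its genotype difference on HFD was 0.17 with normexp. For both genes the highest array was LKO on HFD.

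Their neighbours differed by diet and in both directions. Abca8a had 2.99 and 2.41 on chow, 1.62 and 1.56 on HFD, HFD minus chow was -0.88 in F/F and -0.63 in LKO, and its other probe gave -0.84 and -0.87. Abca8b, its closest paralogue, went the other way with 0.20 and 0.37, and its signals were 3.12 and 3.48 on chow, 3.59 and 4.49 on HFD. Abca6 had 4.08 and 4.42 on chow, 3.38 and 3.13 on HFD, with -0.27 in F/F and -0.50 in LKO. Of the 5 genes, 3 were higher and 2 lower on HFD in LKO. Macrophage, stellate cell and endothelial markers were higher in LKO on HFD too, with medians of 0.60, 0.44 and 0.15 against F/F HFD, and their part in the Abca5 and Abca9 values was not tested.

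The lowest differences of the family were those of Abca17. Its signals were 3.77 and 2.96 on chow, 1.57 and 1.03 on HFD, with both HFD arrays below both chow arrays, and HFD minus chow was -1.27 in F/F and -1.53 in LKO (2.40-fold and 2.88-fold lower), the former -0.71 and under 2-fold with the mean of all probes. Of all genes with a value, 1.76% and 1.33% were as far or farther down. LKO minus F/F was -0.61 on HFD and -0.35 on chow, and the last value turns positive with the mean of all probes, which takes in a second probe that was not above background on any array. The annotated ranges of Abca17 and Abca3 overlap head to head on chromosome 17. Abca3, the surfactant lipid transporter of lung, did not share this order, with 13.0 and 13.1 on chow, 15.4 and 12.1 on HFD and HFD minus chow of 0.25 in F/F and -0.12 in LKO, the latter of which turns positive under some alternatives.

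Among other A members, Abca2, a lysosomal lipid transporter of the nervous system, had 0.870 and 0.729 on chow, 0.650 and 0.534 on HFD, and was lower in every comparison, from -0.45 to -0.25. Abca4, the retinal flippase, was near the detection limit with 0.0595 and 0.0351 on chow, 0.0398 and 0.0283 on HFD, of which the LKO value on chow was not well above background. Abcg3, a rodent-specific gene of haematopoietic tissue, had 0.203 and 0.235 on chow, 0.459 and 0.679 on HFD. HFD exceeded chow by 1.17 in F/F and 1.53 in LKO, and LKO exceeded F/F by 0.57 on HFD and 0.21 on chow, the latter 0.76 with the mean of all probes. The other probe of Abcg3 gave at least 0.58 for HFD minus chow in F/F and 0.79 in LKO, the latter less than the first one. With normexp no Abcg3 value reached 2-fold. The order of its 4 arrays is that of Abcg1.

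The channel subunit Abcc9, which regulates the potassium channel of vascular smooth muscle, had 1.28 and 1.37 on chow, 1.16 and 1.53 on HFD and a difference of 0.40 for LKO minus F/F on HFD. The 4 members with no transport role act on ribosomes and translation. Abce1, which recycles ribosomes, had 5.04 and 5.37 on chow, 4.19 and 3.92 on HFD, and Abcf1, Abcf2 and Abcf3 lay within -0.31 and 0.11 in all comparisons. On HFD, 4 of 4 were lower than on chow in both genotypes, with a median of -0.22 in F/F and -0.29 in LKO. Over the alternatives 3 or 4 were lower in F/F and 4 in LKO. Of all genes with a value, 47.7% were higher on HFD in F/F and 43.5% in LKO. For LKO minus F/F on HFD the median of the 4 was -0.12. Abcf1 had 10.4 and 11.2 on chow, 9.60 and 9.47 on HFD, Abcf2 had 2.80 and 2.54 on chow, 2.48 and 2.10 on HFD and Abcf3 had 5.59 and 5.09 on chow, 4.54 and 4.10 on HFD.

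Short motifs of nuclear receptors and NRF2 were counted on both strands of the promoter windows (250 bases before to 50 after a start). Of the 47 members, 37 have at least 1 window in the table. AGGTCA, the letters many nuclear receptors recognise, occurs in 6 of their 44 windows, which belong to 4 members (Abcb6, Abcc2, Abcc10 and Abcg2), where 16.3% of all 32851 windows hold it. TGACNNNGC, the core bound by NRF2, occurs in 7 of the 44, which belong to 5 members (Abca8b, Abcb1a, Abcc2, Abcc4 and Abcc10), where 12.4% of all windows do. Direct repeats of AGGTCA spaced by 4 bases or by 1 base occur in 0 members and in 0.0152% and 0.0396% of all windows, and TGACTC followed directly by AGCA occurs in 0 members and in 0.155%. AGGTCA is part of both repeats. Nothing about the factors follows from letters that these short windows lack.

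Other cell types differed between the arrays as well. Stellate cell markers were higher in LKO on HFD in 5 of 5 (median 0.44) and on HFD in F/F in 5 of 5 (median 0.60), with sums of 4.19 and 4.90 on chow, 6.52 and 8.10 on HFD and Reln as the brightest. Endothelial markers had sums of 13.6 and 14.2 on chow, 19.4 and 21.1 on HFD with Stab2 the brightest, and 4 of 5 were higher in LKO on HFD (median 0.15). Both lists thus had their highest sum in LKO on HFD. Cholangiocyte markers summed to 4.84 and 4.43 on chow, 13.3 and 15.2 on HFD, and 5 of 5 were higher in LKO on HFD (median 0.64). Most of each sum was Spp1, with 3.79 and 3.73 on chow, 12.6 and 14.1 on HFD. Platelet markers summed to 0.664 and 0.674 on chow, 1.51 and 2.09 on HFD, with Pf4 the brightest, and a median of -0.56 for LKO minus F/F on HFD turns positive when genes below the call on any array are dropped. T cell markers (4 of 5 on the array, brightest Cd3e) summed to 2.29 and 2.06 on chow, 1.77 and 2.20 on HFD and B cell markers (brightest Cd79b, with Cd79a not above background on any array) to 0.451 and 0.429 on chow, 0.676 and 0.837 on HFD. Of the T cell markers, 4 of 4 were higher in LKO on HFD (3 or 4 over the alternatives), 1 of them by a bound. Their median was 0.67 with the bound taken as it stands, and as low as 0.18 over the alternatives. The values ran from 0.07 for Cd3e upwards. Stellate and endothelial sums were higher on HFD than on chow, while 2 of 5 cholangiocyte markers were lower on HFD in F/F. Their part in any ABC difference was not tested.

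Across all processing alternatives, 15 differences of a member were at least 2-fold as reported, 0 of them changed sign, and 4 stayed past 2-fold every time: HFD minus chow in F/F for Abcd2 and Abcb9, and in LKO for Abcg1 and Abca17. The others dropped below 2-fold under at least 1 alternative, most often normexp. Its offset of 50, added to every signal, compresses the differences of dim genes whatever their background. For genes with a signal near or below that offset, a fall below 2-fold with normexp is therefore no check on the difference. The plot of the ranges gives each.

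**Figure D4:**
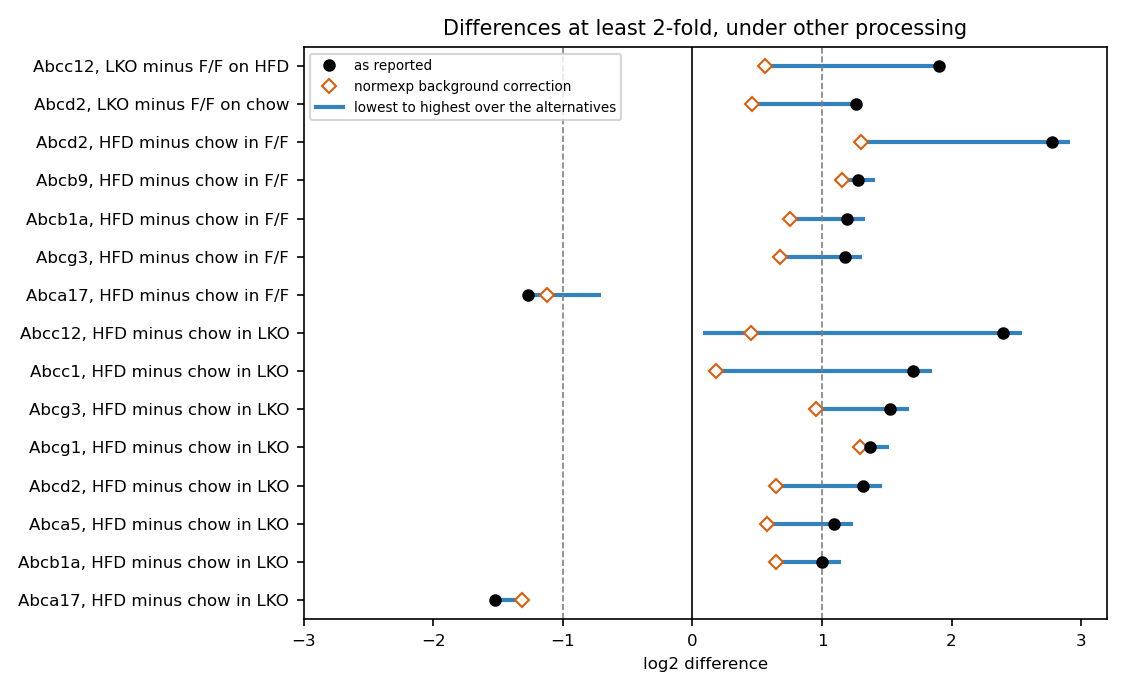
Each of the 15 differences of at least 2-fold (rows) on the log2 axis, as reported (black points), with normexp background correction (open diamonds) and from the lowest to the highest value over the alternatives that give one (blue lines), with dashed lines at 2-fold. The lines of Abcd2 and Abcb9 on HFD in F/F and of Abcg1 and Abca17 on HFD in LKO stay outside the dashed lines.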

How the data were processed

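Liver RNA was measured on 4 Agilent one-colour arrays, 1 per condition, each with 62976 spots. The deposited scanner files hold intensity values that the authors made with Agilent Feature Extraction 12.0.3.1, which subtracts background and removes spatial trends, and the deposited table of values holds the same intensities multiplied by 1 factor for each array. Here, Python 3.11.15 with numpy 2.4.6, pandas 2.3.3 and matplotlib 3.10.9 took log2 of the processed signal minus the log2 75th percentile of the array over spots that are not controls. Outlier spots (132 and 100 on chow, 95 and 76 on HFD) were left out, no spot was saturated, and each gene was read from its brightest probe. Of 56605 probes, 33762 (59.6%) were matched to a gene through the RefSeq accessions. A gene well above background on 1 array of a comparison got a bound. The other side was set to the dimmest signal well above background or its own signal, whichever was higher. A gene below on both got no value. Abca4 also got none for HFD minus chow in LKO, where the level set for chow (0.0379) lay above its HFD signal (0.0283).

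Each comparison is the difference of 2 arrays, read against a 2-fold threshold and untested. Members at least 2-fold apart in any comparison are described, and the others by role, with other probes given where they differ from the first by over 0.5. Members and lists were chosen with earlier results of these data known. Alternatives were normexp background correction (offset 50, limma 3.58.1, R 4.3.3), quantile normalization, a percentile taken from probes above background throughout, the deposited table, a stricter filter (genes above background throughout), no filter or floor, a mean over the probes of a gene and a 1.5-fold threshold. Promoter sequences are from RefSeq (GRCm38.p6), and GATAA and CCAAT were added to the motifs after the windows had been read. Protein sequences were not used here, and 4 genes are not reported here.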

Additional observations from a re-analysis of the deposited data

How the results depend on the processing

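Of the 139 differences of a member under 2-fold, 23 changed sign under at least 1 alternative, a count that takes in alternatives which multiply each array by 1 factor and so shift all members alike. Among all differences of a member, those past 2-fold included, 32 were at least 1.5-fold, and 0 of these changed sign. The counts of members at least 2-fold apart differed in both directions. The deposited table gave 6 members higher for HFD minus chow in F/F and 9 in LKO, where 1075 of 15373 and 1549 of 15378 genes were. In F/F there were 5 members with no filter and 5 with the mean of all probes, where 1366 of 23458 and 696 of 15146 genes were. With normexp, 0 were higher in LKO on HFD and 0 on chow, and 2 were higher for HFD minus chow in F/F and 1 in LKO. For LKO minus F/F on HFD, 0 were higher when genes below background on any array were dropped and 0 with the mean of all probes, which also left 0 lower for HFD minus chow in F/F. With that mean, 364 of 15319 genes were higher in the first comparison and 434 of 15146 were lower in the second. With no filter and no floor, 2 were lower for HFD minus chow in LKO. At 1.5-fold, 4 were higher and 3 lower for LKO minus F/F on HFD, 3 and 2 on chow, 7 and 2 for HFD minus chow in F/F, and 9 and 2 in LKO, where all genes gave 1253 and 944, 527 and 519, 2033 and 1474, and 2346 and 1789. These are out of 39, 38, 39 and 38 members and 15525, 14978, 15355 and 15239 genes with a value. The members' median for HFD minus chow was 0.044 in F/F with quantile normalization, 0.13 with the deposited table and -0.11 with no filter, and in LKO it was 0.030 with normexp, 0.043 with quantile normalization and 0.063 with the deposited table. The deposited table multiplies each array by 1 factor, so it shifts the measured differences of all genes alike. The cause of the other shifts was not tested.

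Among all genes, normexp left 94 higher and 85 lower for LKO minus F/F on HFD, 20 and 19 on chow, 211 and 148 for HFD minus chow in F/F, and 428 and 240 in LKO. With no filter and no floor the corresponding counts were 996 and 889, 672 and 806, 1366 and 1351, and 1912 and 1508. Dropping genes below background on any array left 199 and 170, 76 and 75, 602 and 307, and 969 and 463. The genes with a value were 15317, 14862, 15003 and 14673 with normexp, 23458 each with no filter and 13978 each after that drop. The deposited table moved the median of all genes for HFD minus chow by 0.14 in F/F and 0.15 in LKO, and the share of 2-fold differences that were higher from 63.9% to 76.1% and from 66.6% to 77.7%. With no filter these shares were 50.3% and 55.9%.

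No paired analysis was possible because each condition has 1 array and no difference comes from a test. No replicate number pairs the arrays, since each is the only one of its condition. The methods name littermate controls for the LKO mice on HFD but do not tie them to single arrays. The spread between mice is unknown, and a difference between 2 conditions cannot be told apart from one between 2 RNA samples. Values near the dimmest signal well above background, as for Abcc1, Abcc12 and Abca4, are limited by signal over background.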
